A study of Mus musculus with 24 samples.

Results

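The lysosome genes are 33 mouse genes that code for the membrane proteins, acid hydrolases and pump subunits of the lysosome. They were taken by name from the gene names of the array, where all 33 were found among 30199 names. Expression was high enough to be tested for 32 of the 33, out of 15646 gene names that could be tested. Npc1, the sterol exporter of the lysosomal membrane, was not tested, because its probe was well above background on 11 of 24 arrays, and it read between -4.46 and -0.88. Of the 32 tested genes, 27 were well above background on all 24 arrays.

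Lysosomes are membrane-bound compartments in which material from outside and inside the cell is broken down at acid pH. A proton pump, the V-type ATPase, acidifies them, and cathepsins, glycosidases and lipid hydrolases digest their content. Many of these genes carry a short palindrome in their promoters that is bound by the transcription factors Tfeb, Tfe3, Mitf and Tfec, and through which they can be switched on together. In blood, monocytes, granulocytes and platelets are rich in lysosomes or in granules related to them, whereas red cells discard theirs as they mature.

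The arrays hold whole-blood RNA of 24 male mice of strain 129S/J, 1 mouse per array. Wild-type mice received 0 Gy (5 mice), 6 Gy (5 mice) or 8.8 Gy (4 mice) of X-rays, and Parp1-/- mice, called knockout here, received 0 Gy (5 mice) or 6 Gy (5 mice). Mice at 0 Gy were sham-irradiated. All were killed 24 h later, bled from the heart into PAXgene solution, and their RNA was depleted of globin transcripts. Per the series' design, 8.8 Gy in wild type and 6 Gy in the knockout are the doses lethal to 50% of mice within 30 days. The sources used here do not say which part of Parp1 the knockout lacks, nor whether the probe for Parp1 lies in it. The labels number the arrays of each group as replicates, and each array is taken here as a separate mouse.

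Some features of the arrays bear on the values below. Parp1, which codes for a poly(ADP-ribose) polymerase that acts at DNA breaks, ran from -0.94 to -0.35 in unirradiated wild-type mice and from -3.82 to -2.29 in unirradiated knockout mice (log2 level against the array's 75th percentile). It ran from -2.33 to -1.27 in wild-type mice at 6 Gy, well above background on 3 of 5 arrays, and from -1.59 to -1.25 on 3 of the 4 at 8.8 Gy. Wild-type 6 Gy replicate 2, at -2.33 and not well above background, lay within the range of unirradiated knockout mice. The fourth array at 8.8 Gy, labelled wild-type 8.8 Gy replicate 4, read -3.95. That is within the range of 4 of the 5 knockout 6 Gy arrays, -5.01 to -3.45, and these were not well above background. The array labelled knockout 6 Gy replicate 1 read -1.67 and was well above background. That knockout array and replicate 2 of wild-type 8.8 Gy were the closest of 276 pairs (SD of the log2 difference 0.167, median over pairs 0.902), and their lysosome genes differed by 0.0861 on average. Whether samples were swapped or repeated there was not tested. Fewer probes were well above background in knockout 0 Gy mice, 39.4% ± 2.42 (SD, n = 5), than in the other groups, whose means lay between 47.9% and 49.7%. The mean level of 23 hepatocyte genes ran from -3.22 to 6.42 among the wild-type 0 Gy mice alone, with 4 to 23 of the genes well above background. Scan day overlapped with group: day 4 held the wild-type 0 Gy group, day 3 both irradiated wild-type groups, days 1 and 2 the knockout 0 Gy group, and knockout 6 Gy mice were spread over days 1, 3 and 4.

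The promoters are shown because the RNA of Tfeb, Tfe3, Mitf and Tfec, the family that binds the palindrome, was itself measured here. The genes that carry its core did not move in one direction, and binding was not measured. RefSeq windows from 250 bases before to 50 bases after the start (GRCm38.p6) were held for 29 of the 33 genes, not for Ctsb, Ctsh, Npc1 and Asah1. TCACGTG, on either strand, was found in 9 of the 29 (31.0%) against 4.29% of 27025 genes with a window of the same length. Its core CACGTG, which every TCACGTG contains, was found in 10 (34.5%) against 8.09%, and TCACGTGA, which contains both, in 5 (17.2%) against 1.12%. The full palindrome of 10 bases that is known as the CLEAR motif was found in 0 of the 29 and in 0.37% of all genes. Of the 11 genes called higher in the knockout response, 10 had a window and 3 of these held TCACGTG: Lamp1, Ctsd and Glb1. Atp6v0d1, called lower, also held it. The stretches before the start that carry the core are printed for these 3 genes and for Mcoln1 and Gla, which hold a pair of cores each and were called in no comparison. CACGTG is in capitals, and each is read on the strand of its gene: Lamp1 chr8:13159088-13159160 (forward strand), Ctsd chr7:142387908-142388077 (reverse strand), Glb1 chr9:114401018-114401047 (forward strand), Mcoln1 chr8:3500436-3500491 (forward strand) and Gla chrX:134601182-134601244 (reverse strand).
Lamp1: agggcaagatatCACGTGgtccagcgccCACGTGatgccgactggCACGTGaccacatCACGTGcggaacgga
Ctsd: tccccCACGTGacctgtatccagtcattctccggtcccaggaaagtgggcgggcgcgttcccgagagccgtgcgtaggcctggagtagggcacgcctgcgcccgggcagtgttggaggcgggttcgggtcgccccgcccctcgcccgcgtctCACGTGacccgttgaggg
Glb1: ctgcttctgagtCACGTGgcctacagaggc
Mcoln1: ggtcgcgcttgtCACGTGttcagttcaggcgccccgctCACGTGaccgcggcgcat
Gla: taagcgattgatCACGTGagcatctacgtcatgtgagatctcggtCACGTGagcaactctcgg

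In the blood of knockout mice, 11 lysosome genes were higher after 6 Gy, among them 4 of the 5 membrane proteins, and Ctsb, the gene of cathepsin B, and Atp6v0d1, a subunit of the proton pump, were lower. A gene was called at an adjusted p under 0.05 (limma's moderated test over all genes tested, Benjamini-Hochberg). Of the 32 genes, 11 were called higher and 2 lower, 13 in all, where 23.4% of all genes tested were called. The median log2 difference was 0.68 over the lysosome genes and -0.14 over all genes tested, and 25 of the 32 differences were above 0. Among all genes 11.2% were called higher and 12.2% lower. In 10 lysosome genes every irradiated knockout array lay above every knockout 0 Gy array, against 8.51% of all genes, and in 1, Ctsb, below, against 6.89%. In bulk blood, fewer cells of a type and less RNA per cell cannot be told apart. By role, 4 of 5 membrane proteins, 1 of 10 proteases, 3 of 7 glycosidases, 3 of 6 genes of lipid breakdown and 0 of 4 genes of the proton pump and ion channel were called higher. With a fixed block for slide or scan day 0 were called, where 0.422% and 0.403% of all genes were. The difference in both block fits rests on the only slide and day that held both knockout doses, so they are not separate checks. Within day 1, with 1 array at 6 Gy and 2 at 0 Gy, Lamp2 differed by 1.68, Ctsd by 1.34 and Ctsb by -2.28. With the erythroid marker level as covariate 6 were called. The share of all genes called in that fit is not reported here. The erythroid level itself differed by dose, so the fit cannot tell red cells and dose apart. In the same comparison the percentage of probes counted as well above background rose by 8.48 percentage points and the mean level of probes never well above background lower, at -0.78 (both exact permutation p 0.00794, adjusted p 0.0425), and their part in the differences was not tested. In wild type at 6 Gy that background level was higher by 0.97 (adjusted p 0.0425).

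In wild-type blood 6 genes were called at 6 Gy and 4 at 8.8 Gy. At 6 Gy, Lamp2, Ctsd, Hexa and Ppt1 were called higher and Ctsb and Atp6v0d1 lower, 6 of 32, where 27% of all genes were called (16.4% higher, 10.6% lower). At 8.8 Gy, Lamp1, Lamp2, Ctsd and Hexa were called higher and 0 genes lower, 4 of 32, where 17.6% of all genes were called (6.81% higher, 10.8% lower). At 6 Gy, 2 genes lay apart from their controls upwards and 2 downwards, against 9.61% and 9.34% of all genes. At 8.8 Gy, 8 lay apart upwards and 0 downwards, against 6.19% and 12.8%. The median log2 difference of the lysosome genes was 0.12 at 6 Gy and 0.06 at 8.8 Gy, against 0.05 and 0.02 over all genes. The split differed between ways of processing. The authors' deposited log2 values, with 22 of the genes tested, gave 1 higher and 4 lower at 6 Gy and 4 higher and 1 lower at 8.8 Gy. That fit also kept only probes with a value on every array and used no background filter, so it does not isolate scaling. Centring each array on its median gave 5 and 1 at 8.8 Gy. With a fixed block for slide or scan day 0 were called at either dose, and leaving out 1 array gave 3 to 9 calls at 6 Gy and 2 to 7 at 8.8 Gy. Both wild-type responses share the wild-type 0 Gy arrays, and the knockout response has controls of its own.

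**Figure D1:**
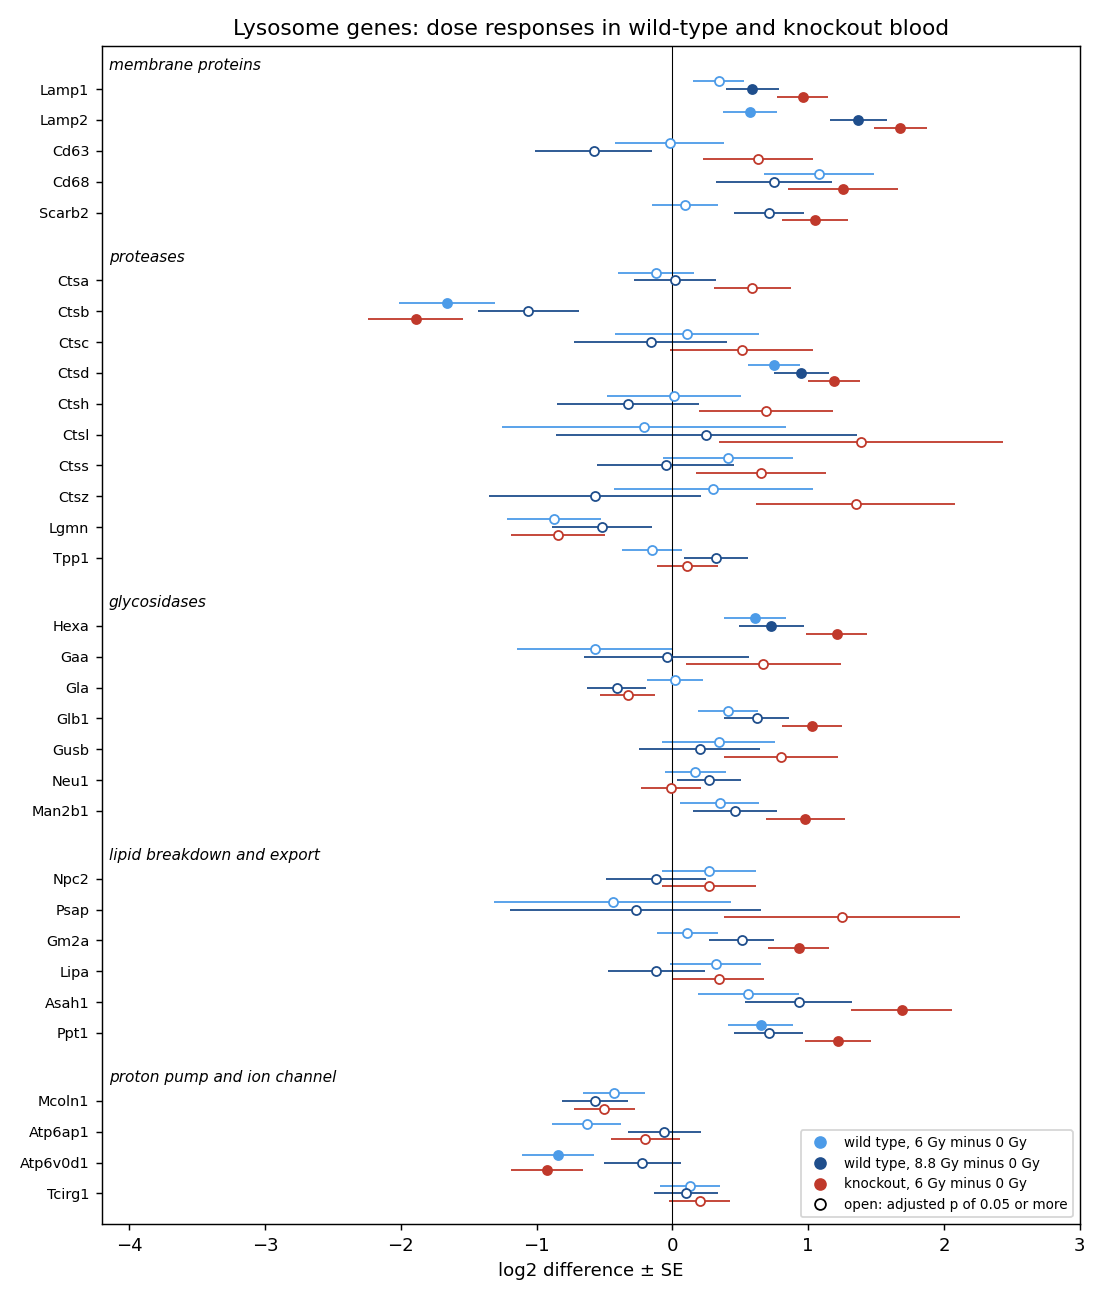
Log2 difference with its standard error for 32 lysosome genes, grouped by role, in the 3 dose responses. Filled points were called; in the knockout response (red) 11 genes were called higher, from 0.93 for Gm2a to 1.69 for Asah1, and Ctsb and Atp6v0d1 were called lower at -1.89 and -0.92.

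Lamp1 and Lamp2 code for the heavily glycosylated proteins that line the inside of the lysosomal membrane. Their probes lie at chr8:13175277-13175336 and chrX:35777505-35777564 (mm9, as the array files give them). Those of Ctsd, Ctsb, Hexa, Glb1, Ppt1 and Atp6v0d1, also given in full, lie at chr7:149561962-149562021, chr14:63761906-63761965, chr9:59411712-59411771, chr9:114383136-114383195, chr4:122525717-122525776 and chr8:108048778-108048837 of the same build. Lamp2 read 2.59, 1.86, 2.34, 2.62 and 2.27 on the wild-type 0 Gy arrays, 3.09, 3.21, 3.02, 2.76 and 2.44 at 6 Gy, and 3.86, 3.89, 3.64 and 3.41 at 8.8 Gy (replicates in label order). In the knockout it read 2.58, 1.77, 1.97, 2.37 and 2.29 at 0 Gy and 3.99, 3.98, 3.77, 3.79 and 3.86 at 6 Gy. The 9 arrays of wild-type 8.8 Gy and knockout 6 Gy were the highest of all 24, and no array of theirs overlapped with the other groups, whereas wild-type 6 Gy arrays overlapped with their controls. The rise was 3.21-fold in the knockout (log2 1.68, SE 0.198, adjusted p 8.45e-06), 2.58-fold in wild type at 8.8 Gy (1.37, SE 0.210, adjusted p 0.000234) and 1.48-fold at 6 Gy (0.57, SE 0.198, adjusted p 0.0367). The other Lamp2 probe, made for another transcript, gave log2 differences of 1.51 in the knockout (adjusted p 0.00688), 0.91 at 8.8 Gy (0.132) and 0.52 at 6 Gy (0.320).

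Lamp1 read 5.91, 5.80, 5.63, 6.05 and 6.05 in wild type at 0 Gy, 6.52, 5.97, 6.14, 6.06 and 6.44 at 6 Gy, and 6.68, 6.42, 6.51 and 6.29 at 8.8 Gy. Knockout arrays read 6.17, 5.35, 5.72, 5.76 and 5.82 at 0 Gy and 6.35, 6.85, 6.56, 7.10 and 6.77 at 6 Gy. All knockout 6 Gy arrays lay above all knockout 0 Gy arrays, and the same held at 8.8 Gy in wild type. The log2 difference was 0.96 (SE 0.186, adjusted p 0.000951) in the knockout, 0.59 (SE 0.197, adjusted p 0.0417) at 8.8 Gy and 0.34 (SE 0.186, adjusted p 0.175) at 6 Gy in wild type. The 4 copies of the core printed for Lamp1 lie within 73 bases before its start.

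The other membrane proteins are Cd63, a tetraspanin of late endosomes and platelet granules, Cd68, a scavenger-type protein of macrophages, and Scarb2, the receptor that carries glucocerebrosidase to the lysosome. Scarb2 went from -0.70 ± 0.46 to 0.35 ± 0.28 (SD, n = 5 each) in the knockout, without overlap, a log2 difference of 1.05 (SE 0.243, adjusted p 0.00348). In wild type Scarb2 was 0.09 at 6 Gy and 0.71 at 8.8 Gy, neither called. Cd68 rose 2.40-fold in the knockout (log2 1.26, SE 0.405, adjusted p 0.0267), from 1.34 to 2.83 at 0 Gy to 2.36 to 4.31 at 6 Gy, and the groups overlapped. Cd68 differences in wild type were 1.08 at 6 Gy (adjusted p 0.0502) and 0.75 at 8.8 Gy (adjusted p 0.241). A second Cd68 probe, well above background on 20 arrays, was called in no response. It gave 1.15 in the knockout (adjusted p 0.0886), 0.88 at 6 Gy and 0.85 at 8.8 Gy. Cd63 was called in no response, with 0.63 in the knockout, -0.02 at 6 Gy and -0.58 at 8.8 Gy in wild type. At 8.8 Gy Cd63 read 0.69 on replicate 4 and 2.76 to 3.42 on the other 3 arrays, and without replicate 4 the difference was 0.02.

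Among the proteases, Ctsd and Ctsb went in opposite directions. Ctsd, the gene of the aspartic protease cathepsin D, read 4.97, 5.12, 5.04, 5.49 and 5.19 at 0 Gy, 6.00, 5.84, 6.12, 5.50 and 6.12 at 6 Gy and 6.40, 6.01, 5.96 and 6.07 at 8.8 Gy in wild type. Knockout arrays read 5.01, 4.73, 5.34, 5.10 and 5.41 at 0 Gy and 6.12, 6.58, 5.93, 6.72 and 6.21 at 6 Gy. In each of the 3 responses every irradiated array lay above every control array. The log2 difference was 1.19 (SE 0.193, adjusted p 0.000214) in the knockout, 0.95 (SE 0.205, adjusted p 0.0035) at 8.8 Gy and 0.75 (SE 0.193, adjusted p 0.00864) at 6 Gy in wild type. A second Ctsd probe, also well above background on all arrays, gave 1.21 and 1.22 in the knockout and at 8.8 Gy and -0.21 (adjusted p 0.692) in wild type at 6 Gy, so its 2 probes disagreed there.

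Ctsb, the gene of the cysteine protease cathepsin B, read 5.88, 6.82, 6.37, 7.09 and 6.61 in wild type at 0 Gy, 5.17, 4.51, 4.36, 4.98 and 5.45 at 6 Gy and 6.19, 5.48, 5.29 and 5.04 at 8.8 Gy. In the knockout it read 6.88, 6.36, 8.39, 7.42 and 6.93 at 0 Gy and 5.50, 5.72, 5.15, 5.83 and 4.34 at 6 Gy. The 6 Gy arrays of both genotypes lay below all their controls, and the 8.8 Gy arrays overlapped with theirs. Ctsb fell 3.70-fold in the knockout (log2 -1.89, SE 0.352, adjusted p 0.000732) and 3.17-fold in wild type at 6 Gy (-1.66, SE 0.352, adjusted p 0.0029). At 8.8 Gy the difference was -1.06 (SE 0.374, adjusted p 0.0536). The means of erythroid, B cell and T cell markers fell in the same 2 comparisons, as given with the marker lists. Their parts in the fall of Ctsb cannot be told apart.

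The other 8 proteases were called in no response. They are the cathepsins Ctsa, Ctsc, Ctsh, Ctsl, Ctss and Ctsz, legumain (Lgmn), which cleaves after asparagine, and Tpp1, which removes tripeptides. Ctsz differed by 1.35 in the knockout (SE 0.733, adjusted p 0.188), and its 5 irradiated arrays (4.22 to 5.18) lay above their controls (3.04 to 3.96). The SE pools all groups, and in wild type at 8.8 Gy 1 array, replicate 4, read -1.33 and the other 3 read 4.28 to 4.93. Without that array Ctsz was called in the knockout response. Ctsl, from 0.55 to 4.92 within the knockout 0 Gy arrays, had the largest SE of the 32 genes, 1.045, and was not called at 1.39 in the knockout. Lgmn was at -0.84 in the knockout (adjusted p 0.0837), -0.87 at 6 Gy (adjusted p 0.0662) and -0.52 at 8.8 Gy in wild type.

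**Figure D2:**
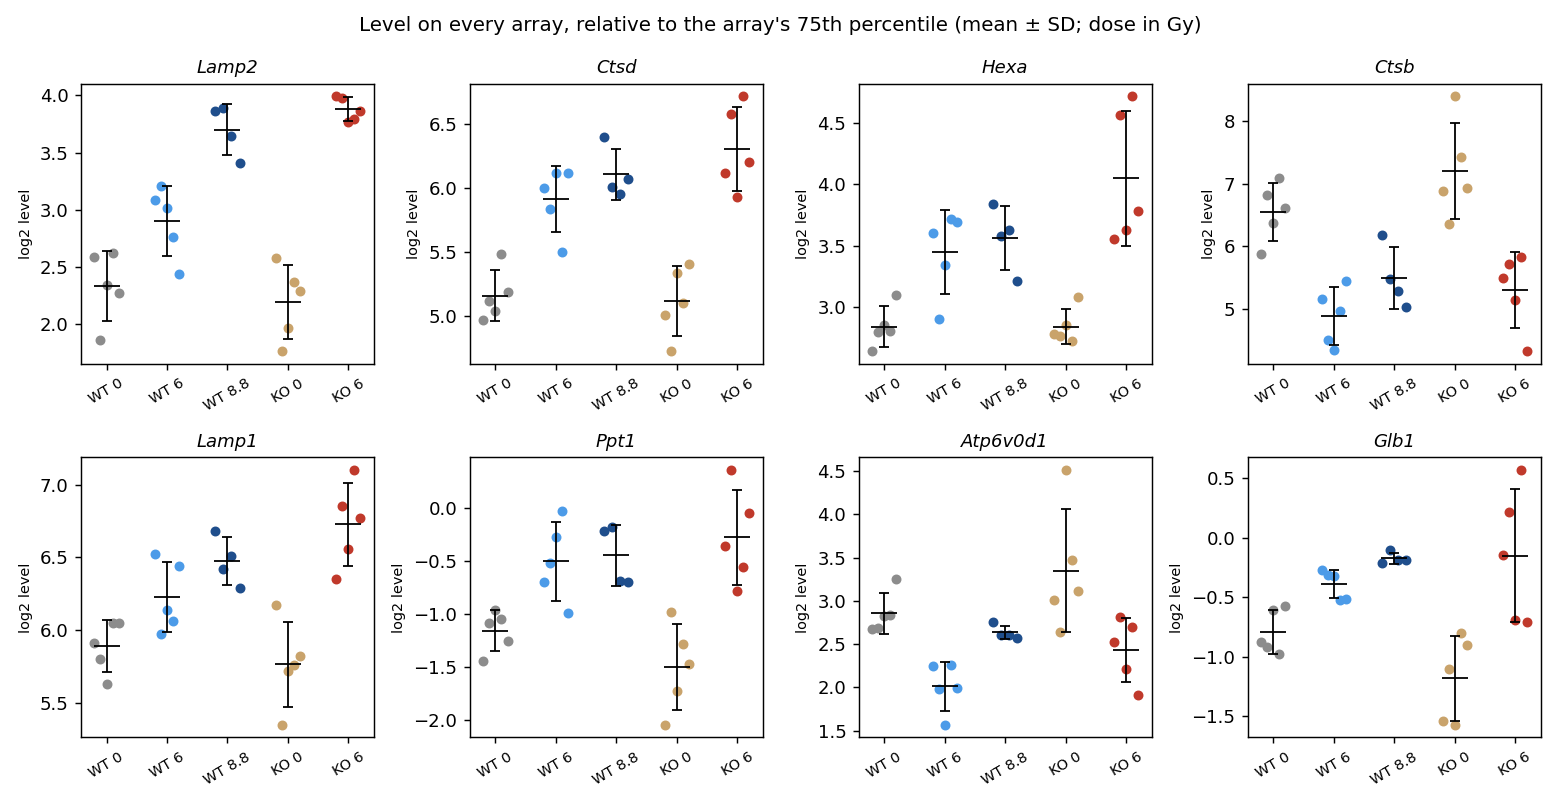
Log2 level against the array's 75th percentile on each of the 24 arrays for the 8 genes called in the most comparisons, by group (WT wild type, KO knockout, dose in Gy), with mean and SD. Lamp2 lies between 3.77 and 3.99 on the 5 knockout 6 Gy arrays and between 1.77 and 2.58 on their controls, while Ctsb is lower on the 6 Gy arrays than on all controls of either genotype.

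Of the 7 glycosidases, which take sugars off glycoproteins and glycolipids, Hexa was called in all 3 responses. Hexa codes for the alpha subunit of beta-hexosaminidase A, the enzyme of GM2 ganglioside breakdown. It read 2.64, 2.79, 2.85, 2.80 and 3.10 in wild type at 0 Gy, 3.60, 2.90, 3.34, 3.72 and 3.69 at 6 Gy, and 3.84, 3.58, 3.63 and 3.21 at 8.8 Gy. Knockout arrays read 2.78, 2.76, 2.85, 2.72 and 3.08 at 0 Gy and 3.55, 4.57, 3.63, 4.72 and 3.78 at 6 Gy. In the knockout, and at 8.8 Gy in wild type, the groups did not overlap, whereas at 6 Gy in wild type 1 array lay within the range of the controls. Log2 differences were 1.21 (SE 0.227, adjusted p 0.000766) in the knockout, 0.73 (SE 0.241, adjusted p 0.0397) at 8.8 Gy and 0.61 (SE 0.227, adjusted p 0.0485) at 6 Gy.

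Glb1, the gene of lysosomal beta-galactosidase, read -0.88, -0.92, -0.61, -0.98 and -0.57 at 0 Gy, -0.27, -0.31, -0.32, -0.52 and -0.51 at 6 Gy and -0.21, -0.10, -0.19 and -0.19 at 8.8 Gy in wild type. Knockout arrays read -1.54, -1.10, -1.57, -0.80 and -0.90 at 0 Gy and -0.14, 0.22, -0.69, 0.57 and -0.71 at 6 Gy. Groups lay apart in all 3 responses, and the difference was called in the knockout (log2 1.03, SE 0.223, adjusted p 0.00221) but not in wild type at 6 Gy (0.41, adjusted p 0.176) or 8.8 Gy (0.62, adjusted p 0.0742). Man2b1, lysosomal alpha-mannosidase, rose in the knockout (0.98, SE 0.291, adjusted p 0.0178), with overlap, and was at 0.35 and 0.46 in wild type. The remaining Gaa (acid alpha-glucosidase), Gla (alpha-galactosidase A), Gusb (beta-glucuronidase) and Neu1 (sialidase) were not called. Their log2 differences ranged from -0.33 for Gla to 0.80 for Gusb in the knockout and from -0.57 to 0.34 in wild type. A second Gusb probe, well above background on all 24 arrays, gave 0.18 in the knockout, 0.16 at 6 Gy and -0.56 at 8.8 Gy, and was not called either. Gla, which carries 2 copies of the core, was at -0.33, 0.02 and -0.41 in the knockout, at 6 Gy and at 8.8 Gy.

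Of the genes of lipid breakdown and export, Asah1, the gene of acid ceramidase, rose in the knockout by 1.69 (SE 0.371, adjusted p 0.00241). Only 2 of 5 knockout 0 Gy arrays were well above background, so its fitted fold of 3.23 rests on control values near background. It went from between -2.86 and -1.18 at 0 Gy to between -1.01 and 0.36 at 6 Gy, without overlap. A second Asah1 probe, well above background on 6 arrays, did not pass the filter. It gave 0.92 in the knockout (limma, adjusted p 0.112), 0.18 at 6 Gy and 0.42 at 8.8 Gy in wild type. In wild type Asah1 was at 0.56 (adjusted p 0.260) and 0.93 (adjusted p 0.106) at 6 and 8.8 Gy. Ppt1, which removes palmitate from proteins, read -1.44, -1.08, -0.96, -1.04 and -1.25 at 0 Gy, -0.70, -0.52, -0.27, -0.03 and -0.99 at 6 Gy and -0.21, -0.18, -0.69 and -0.70 at 8.8 Gy in wild type. In the knockout Ppt1 read -2.04, -0.98, -1.72, -1.28 and -1.47 at 0 Gy, on 3 of 5 arrays well above background, and -0.36, 0.36, -0.78, -0.55 and -0.04 at 6 Gy. It lay apart from its controls in the knockout and at 8.8 Gy. Ppt1 differences were 1.22 (SE 0.240, adjusted p 0.00107) in the knockout, 0.65 (SE 0.240, adjusted p 0.0475) at 6 Gy and 0.71 (SE 0.254, adjusted p 0.0557) at 8.8 Gy.

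Gm2a, the activator protein that lifts GM2 ganglioside out of the membrane for Hexa's enzyme, rose in the knockout by 0.93 (SE 0.225, adjusted p 0.00484), from between -0.39 and 0.68 to between 0.93 and 1.52. It was at 0.11 and 0.51 in wild type at 6 and 8.8 Gy, not called. Psap, the precursor of the saposins, Npc2, which hands cholesterol on to Npc1, and Lipa, acid lipase, were called in no response. Psap was split within groups: 2 knockout 0 Gy arrays read 2.84 and 3.06 and the other 3 between -1.85 and -0.22, so its log2 difference of 1.25 in the knockout had an SE of 0.870.

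Of the 4 genes of the proton pump and ion channel, 0 were called higher in any response and 1 was called lower. Atp6v0d1, a subunit of the pump's membrane part, read 2.67, 2.69, 2.82, 2.84 and 3.25 in wild type at 0 Gy, 2.25, 1.98, 1.57, 2.26 and 1.99 at 6 Gy and 2.75, 2.61, 2.61 and 2.57 at 8.8 Gy. In the knockout it read 3.01, 2.64, 4.51, 3.47 and 3.11 at 0 Gy and 2.52, 2.81, 2.21, 2.70 and 1.91 at 6 Gy. Wild-type 6 Gy arrays lay below all their controls, and knockout arrays overlapped. The log2 difference was -0.92 (SE 0.265, adjusted p 0.0149) in the knockout, -0.84 (SE 0.265, adjusted p 0.0236) at 6 Gy and -0.22 (adjusted p 0.626) at 8.8 Gy in wild type. Mcoln1, the cation channel of the lysosomal membrane, was at -0.50, -0.43 and -0.57 in the knockout, at 6 Gy and at 8.8 Gy, not called. Its promoter holds 2 copies of the core printed above. Atp6ap1, an accessory subunit, was at -0.20, -0.63 and -0.06 and Tcirg1, a subunit of the membrane part, at 0.20, 0.13 and 0.10 in the same order. The Atp6ap1 probe used gave no call at 6 Gy (adjusted p 0.0698), while another one, at -0.75, had an adjusted p of 0.0470.

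Genes of the same pathway outside the 33 were taken from 7 lists. Beside the counts of all 7 stand the shares of all genes tested. These were 11.2% called higher and 12.2% lower in the knockout, 16.4% and 10.6% at 6 Gy, and 6.81% and 10.8% at 8.8 Gy. In the knockout response 3 of 21 other hydrolases were called higher and 3 lower. Aga, which splits asparagine-linked sugars, rose by 1.80 (SE 0.307, adjusted p 0.000337), and Acp5, tartrate-resistant acid phosphatase, fell by 1.63 (SE 0.260, adjusted p 0.000185). Acp5 also fell in wild type, by 1.55 at 6 Gy and by 2.11 at 8.8 Gy. Of 18 other membrane proteins, 5 were called higher and 0 lower in the knockout. They include Slc15a3, a peptide and histidine transporter, with 1.5, 1.74 and 1.93 in the knockout, at 6 Gy and at 8.8 Gy, called in all 3, and Laptm4b, at 1.41, 0.57 and 1.24 and not called at 6 Gy. Over the 3 responses the other hydrolases were called 3 higher and 2 lower at 6 Gy and 0 higher and 1 lower at 8.8 Gy in wild type, and the other membrane proteins 3 and 0, and 3 and 1.

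The 13 other pump subunits were split as well: 5 were called higher and 2 lower in the knockout, 1 and 3 at 6 Gy, and 1 and 1 at 8.8 Gy. Atp6v1c1 rose by 1.14 in the knockout (SE 0.211, adjusted p 0.000682) and by 0.78 at 8.8 Gy, and Atp6v1g1 fell by 0.88 in the knockout and by 1.05 at 6 Gy. Of 9 genes that sort enzymes to the lysosome, 2 were called higher and 1 lower in the knockout. Igf2r, the large mannose-6-phosphate receptor, rose by 1.19 (SE 0.243, adjusted p 0.00145) there and was at 0.46 and 0.67 in wild type, not called. Gga2, an adaptor that loads these receptors into vesicles, fell by 1.13, 1.01 and 0.96 in the knockout, at 6 Gy and at 8.8 Gy. In wild type this list had 0 genes called higher and 1 lower at 6 Gy, and 2 and 2 at 8.8 Gy.

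Of 10 regulators of lysosome genes, 4 were called higher and 1 lower in the knockout, 1 and 2 at 6 Gy and 1 and 0 at 8.8 Gy. Tfec, a transcription factor of macrophages that binds the palindrome, rose by 1.71 in the knockout (SE 0.360, adjusted p 0.00185), by 1.19 at 6 Gy and by 1.57 at 8.8 Gy. The other factors of its family were singled out after their values were seen: Tfe3 and Mitf were called in the knockout (0.85 and 1.59) and not in wild type, and Tfeb was at 0.23, 0.36 and 0.09 in the knockout, at 6 Gy and at 8.8 Gy, not called. Mtor, the kinase that holds Tfeb outside the nucleus, fell by 1.49 in the knockout and by 1.70 at 6 Gy. Of 15 autophagy genes, 4 were called higher and 1 lower in the knockout, 0 and 3 at 6 Gy and 2 and 0 at 8.8 Gy. Gabarapl2, which coats autophagosomes, fell by 1.05 in the knockout and by 1.48 at 6 Gy, and Becn1, which starts their formation, fell by 1.45 at 6 Gy and was at -0.50 in the knockout, not called. Of 11 genes of endosome and lysosome fusion, 2 were called higher and 0 lower in the knockout, 1 and 0 at 6 Gy and 1 and 1 at 8.8 Gy. Rab7, the small GTPase of late endosomes, rose by 1.05 in the knockout and by 0.81 at 8.8 Gy, and Vps16, a tethering subunit, fell by 0.96 at 8.8 Gy.

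The genotypes were then compared. Without irradiation 0 lysosome genes were called, where 0.78% of all genes were, 0.709% higher and 0.0703% lower in the knockout. At an unadjusted p under 0.05 (limma) there were 3 of the 32 and 3249 of the 15646 genes tested. In 0 of them did the groups lie apart, against 4.24% of all genes upwards and 1.94% downwards. Their median difference, knockout minus wild type, was -0.19 against 0 over all genes, and 24 of 32 differences were below 0. The genes under an unadjusted 0.05 were Asah1 at -0.98 (95% interval -1.74 to -0.21, adjusted p 0.156), Psap at -2.11 (adjusted p 0.184) and Gm2a at -0.48 (adjusted p 0.228). The knockout 0 Gy arrays are also those with the lowest share of probes well above background, and the part of this in the differences was not tested. Lamp2 differed by -0.14 (95% interval -0.55 to 0.27) and Ctsd by -0.04 (-0.44 to 0.36).

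At 6 Gy, 1 lysosome gene was called between the genotypes, where 1.09% of all genes were, 0.364% higher and 0.722% lower in the knockout. Lamp2 was 1.96-fold higher in the knockout (log2 0.97, SE 0.198, adjusted p 0.0370), with all 5 knockout arrays above all 5 wild-type arrays. It was the 1 lysosome gene whose groups lay apart, against 2.77% of all genes upwards and 2.42% downwards. Between the same groups the mean of 10 platelet genes differed by 1.12 (exact permutation p 0.0238, adjusted p 0.103), with summed levels of 508 to 1768 in wild type and 1438 to 2157 in the knockout and 10 of 10 genes well above background. Erythroid genes differed by 0.93 and B cell genes by -0.73 (both exact p 0.0159, adjusted p 0.0760), and eosinophil and basophil genes by -0.94 (exact p 0.00794, adjusted p 0.0425). With the erythroid mean as covariate Lamp2 differed by 0.91 (adjusted p 0.00485), and the part of platelets, B cells, eosinophils and basophils was not tested. Next were Atp6ap1 at 0.73 (adjusted p 0.0941), Scarb2 at 0.69 (adjusted p 0.0949) and Lamp1 at 0.50 (adjusted p 0.108). The difference between the responses was tested as an interaction, and 1 lysosome gene was called there, where 7.21% of all genes were, 0.927% upwards and 6.28% downwards. Lamp2 rose by 1.11 more in the knockout than in wild type at 6 Gy (SE 0.279, 95% interval 0.53 to 1.69, adjusted p 0.0321). For Scarb2 the interaction was 0.96 (adjusted p 0.0806), for Asah1 1.13 (adjusted p 0.173) and for Gm2a 0.82 (adjusted p 0.103), so the calls of these genes in the knockout alone do not show that the responses differed.

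The Lamp2 calls were lost without some arrays. Between the genotypes at 6 Gy it was called in 17 of the 24 fits that left out 1 array, and not without knockout 6 Gy replicate 2, 3, 4 or 5 or wild-type 6 Gy replicate 1, 2 or 3. The interaction was called in 18 of 24 and not without knockout 0 Gy replicate 3, knockout 6 Gy replicate 3 or 4, wild-type 0 Gy replicate 1 or wild-type 6 Gy replicate 2 or 3. Within scan day 3, which held 3 knockout and 5 wild-type 6 Gy arrays, Lamp2 differed by 1.01 (adjusted p 0.150). Leaving out knockout 6 Gy replicate 1, it differed by 0.94 (adjusted p 0.0235) and the interaction was 1.08 (adjusted p 0.0288).

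At doses of equal lethality 0 lysosome genes were called between knockout 6 Gy and wild-type 8.8 Gy, where 0% of all genes were and 0.121% and 0.428% lay apart upwards and downwards (limma, 2 of the 32 at an unadjusted p under 0.05, and 391 of all genes). Lamp2 differed by 0.18 (95% interval -0.26 to 0.61), Ctsd by 0.20 (-0.23 to 0.62) and Hexa by 0.48 (-0.02 to 0.98). The 2 genes under an unadjusted 0.05 were Ctsz, at 1.67, and Cd63, at 1.2, knockout minus wild type (95% interval of Cd63 0.31 to 2.09, adjusted p 0.999). Without the array labelled wild-type 8.8 Gy replicate 4 they were at 0.19 and 0.61, and 0 of the 32 genes were under an unadjusted 0.05. Parp1 was not well above background on that array. The closest pair of all arrays, described above, lies across this same comparison. A sample swapped or repeated between the groups could bring them nearer, so 0 calls cannot show that they were alike. Whether this occurred was not tested. Each of the 24 fits that left out 1 array had 0 calls among the lysosome genes. The limit also holds for the interaction that follows. The interaction with the 8.8 Gy response likewise had 0 calls, where 0% of all genes were called (limma, 0 of the 32 and 1652 of all genes at an unadjusted p under 0.05). Lamp2 was at 0.32 (95% interval -0.28 to 0.91) and Ctsb at -0.83 (-1.90 to 0.23), and each interval holds 0. Between 8.8 and 6 Gy in wild type 0 lysosome genes were called, where 0% of all genes were (limma, 4 of the 32 and 3106 of all genes at an unadjusted p under 0.05). In 5 lysosome genes, Lamp2, Scarb2, Glb1, Atp6ap1 and Atp6v0d1, all 4 arrays at 8.8 Gy lay above all 5 at 6 Gy, and in 0 below, against 2.1% and 3.69% of all genes. Their differences were 0.80 for Lamp2 (95% interval 0.36 to 1.23, adjusted p 0.0973), 0.62 for Scarb2 and for Atp6v0d1, 0.56 for Atp6ap1 and 0.21 for Glb1.

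Blood cell markers moved in the same comparisons. The mean level of 10 erythroid genes was 3.50 ± 0.624 in wild type at 0 Gy, 1.39 ± 0.417 at 6 Gy and 2.33 ± 0.957 (n = 4) at 8.8 Gy. In the knockout it was 4.53 ± 0.975 at 0 Gy and 2.33 ± 0.278 at 6 Gy (SD, n = 5 otherwise). It fell by 2.21 in the knockout and by 2.11 in wild type at 6 Gy (both exact permutation p 0.00794, adjusted over 91 tests p 0.0425). The difference at 8.8 Gy was -1.17 (exact p 0.0714, adjusted p 0.217). All 10 erythroid genes were well above background on every knockout array, and their summed level ran from 3077 to 10094 at 0 Gy and from 2954 to 3292 at 6 Gy (multiples of the array's 75th percentile). In wild type the sum ran from 1569 to 4880 at 0 Gy, with 10 of 10 genes above background, from 2254 to 4212 at 6 Gy, with 7 to 9, and from 2317 to 5361 at 8.8 Gy, with 9 to 10.

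With the erythroid mean as a covariate, an alternative added after the data were seen, Ctsb in the knockout went from -1.89 to -0.64 and Atp6v0d1 from -0.92 to -0.09, neither called. Lgmn went from -0.84 to 0.50. Cd68, Scarb2, Man2b1, Gm2a and Asah1 were no longer called either, at 0.61, 0.40, 0.59, 0.80 and 0.82. Lamp1 (0.98), Lamp2 (1.82), Ctsd (1.53), Hexa (1.26), Glb1 (1.02) and Ppt1 (1.42) were called, 6 higher and 0 lower. In wild type at 6 Gy the same fit called 2 higher and 2 lower, and neither Ctsb nor Atp6v0d1 among them. Shares of all genes called with this covariate are not reported here. The erythroid mean itself differed by dose, so this fit cannot tell red cells and dose apart.

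The mean of 10 platelet genes rose by 1.26 in the knockout (exact permutation p 0.00794, adjusted p 0.0425), from a summed level of 626 to 1115 to one of 1438 to 2157, with 10 of 10 genes well above background on every array. In wild type it was 0.54 higher at 6 Gy (adjusted p 0.597) and 1.40 at 8.8 Gy (adjusted p 0.120). The means of B cell and T cell genes fell in all 3 responses, by 2.27 and 1.79 in the knockout, by 1.77 and 1.44 at 6 Gy and by 2.31 and 2.07 at 8.8 Gy in wild type (each adjusted p 0.0425). The mean of 7 eosinophil and basophil genes fell by 1.39 in the knockout and by 1.30 at 8.8 Gy (both adjusted p 0.0425) and was at -0.45 at 6 Gy (adjusted p 0.407), with 1 to 6 of the genes well above background on an array. Of 12 genes of tissue macrophages and Kupffer cells, 3 to 8 were well above background on the knockout 0 Gy arrays and 8 to 11 on the knockout 6 Gy arrays, with summed levels of 9.48 to 22.7 and 12.7 to 203. Their mean was 1.86 higher at 6 Gy (exact permutation p 0.0317, adjusted p 0.120). The 14 monocyte genes were 0.39 higher in the knockout (adjusted p 0.449), with sums of 91.2 to 174 at 0 Gy and 135 to 419 at 6 Gy. The part of platelets, lymphocytes, eosinophils, basophils, macrophages and monocytes in the lysosome genes' differences was not tested.

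The mean of 17 neutrophil genes was 0.55 higher in wild type at 6 Gy than at 0 Gy (adjusted p 0.199). With it as a covariate, also added after the data were seen, 0 lysosome genes were called higher and 4 lower at 6 Gy in wild type (Ctsb, Atp6v0d1, Lgmn and Atp6ap1), and 11 higher and 3 lower in the knockout. Hepatocyte genes were 1.94 higher in knockout 6 Gy than knockout 0 Gy arrays (adjusted p 0.766). With their mean as a covariate the same 13 genes were called in the knockout response, at 1.69 for Lamp2 and -1.86 for Ctsb, while Ctsl went from 1.39 to 0.65. Shares of all genes called with the neutrophil or hepatocyte covariate are not reported here, so these changes cannot be read as particular to lysosome genes.

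**Figure D3:**
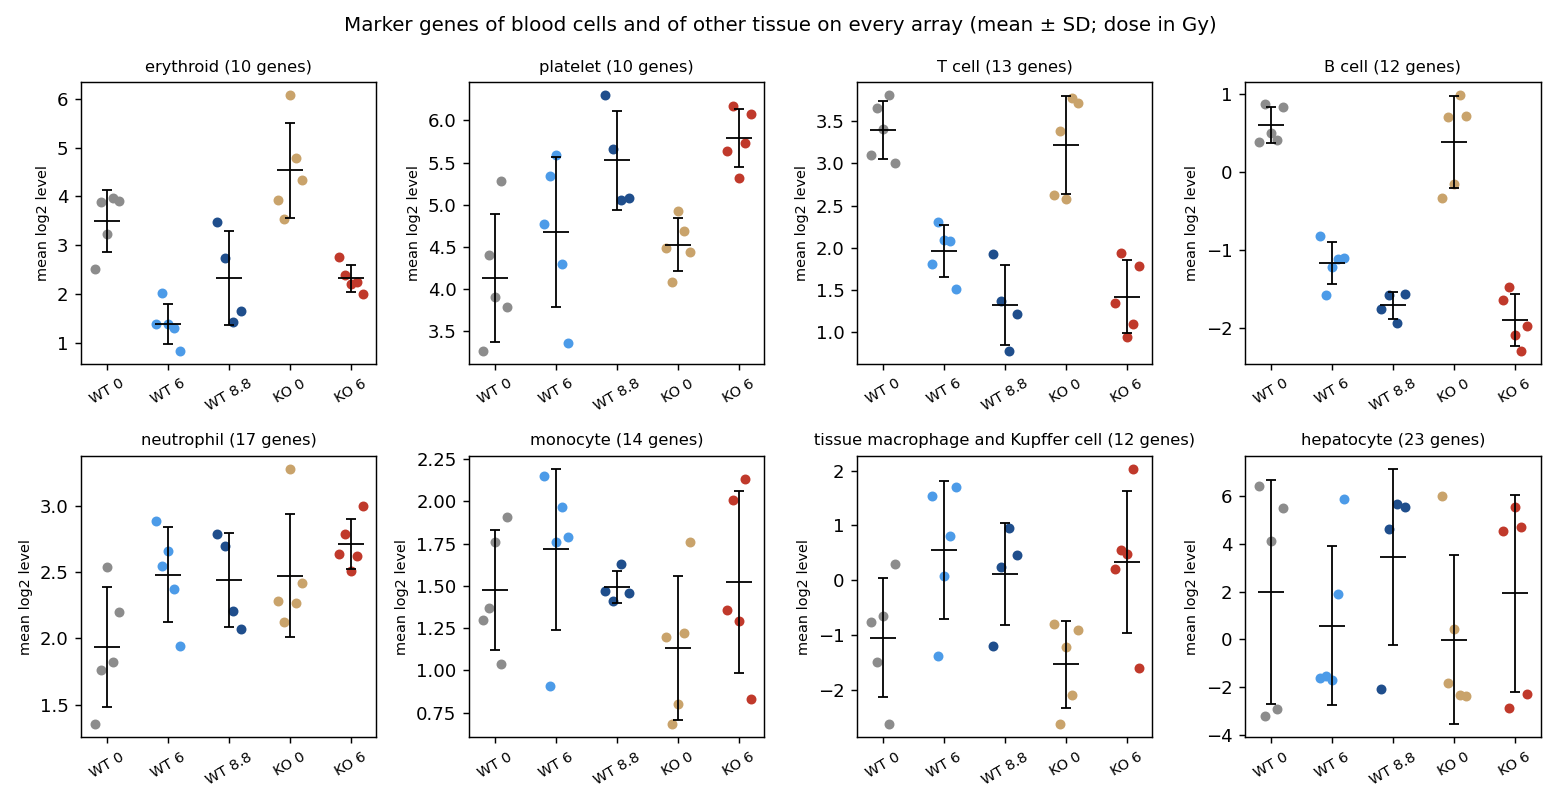
Mean log2 level of marker genes on each of the 24 arrays, by group (WT wild type, KO knockout, dose in Gy), with mean and SD, for 6 blood cell types and for macrophage and liver genes. Erythroid means are 4.53 and 2.33 in knockout arrays at 0 and 6 Gy, platelet means rise by 1.26, and hepatocyte means spread from -3.22 to 6.42 within the wild-type 0 Gy group.

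Scan day and slide could be separated from dose only through a few arrays. In the knockout, both doses were scanned together only on day 1 and on 1 slide, with 1 array at 6 Gy and 2 at 0 Gy. Within that day Ppt1 differed by 1.47 and Asah1 by 0.67. The median over the 32 genes was then 0.14 rather than 0.68. A fixed block for slide, or for scan day, left 0 lysosome genes called in any of the 9 comparisons, where at most 0.422% of all genes were called in the 3 dose responses. For the knockout response both block fits compare the same 1 array at 6 Gy with 2 at 0 Gy. They are therefore not checks apart from the one within day 1. A random block for slide gave 13 calls in the knockout response, 11 higher and 2 lower, and in wild type 3 at 6 Gy and 3 at 8.8 Gy. In wild type no day held both an irradiated and a control array, so there day and dose cannot be told apart without the knockout arrays.

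Each fit was repeated without 1 array at a time. In the knockout response 12 to 14 genes were called in the 24 such fits, and 11 of the 13 genes in every one of them. Cd68 was not called without knockout 0 Gy replicate 1 or 3 or knockout 6 Gy replicate 2 or 4, nor Man2b1 without the last of these. At 6 Gy in wild type 3 to 9 were called: 3 without wild-type 0 Gy replicate 2 or 5 or wild-type 6 Gy replicate 1 or 3, and 9 without knockout 0 Gy replicate 3. Ctsb and Ctsd were called in all 24. Atp6v0d1 was called in 22, not without wild-type 0 Gy replicate 5 or 6 Gy replicate 3. Lamp2 was called in 18, not without wild-type 0 Gy replicate 2, 3 or 5 or 6 Gy replicate 1, 2 or 3. Hexa was called in 10 and Ppt1 in 9, and arrays of other groups, which add only to the estimate of spread, were among those whose loss ended the call. At 8.8 Gy 2 to 7 were called: 2 without wild-type 0 Gy replicate 2 or 3 or wild-type 8.8 Gy replicate 2 or 3, and 7 without knockout 0 Gy replicate 3. Lamp2 and Ctsd were called there in all 24. Hexa was called in 17, not without wild-type 0 Gy replicate 1, 2, 3 or 4 or 8.8 Gy replicate 1, 2 or 3, and Lamp1 in 16, not without wild-type 0 Gy replicate 1, 2, 3 or 5 or any 1 of the 4 arrays at 8.8 Gy. Without both arrays that were nearly alike, 11 genes were called higher and 2 lower in the knockout, 2 and 2 at 6 Gy, and 2 and 0 at 8.8 Gy in wild type. Leaving out knockout 6 Gy replicate 1 alone, the counts were 11 and 2, 3 and 2, and 4 and 0, and leaving out wild-type 8.8 Gy replicate 4 as well, 12 and 2, 3 and 2, and 4 and 0.

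**Figure D4:**
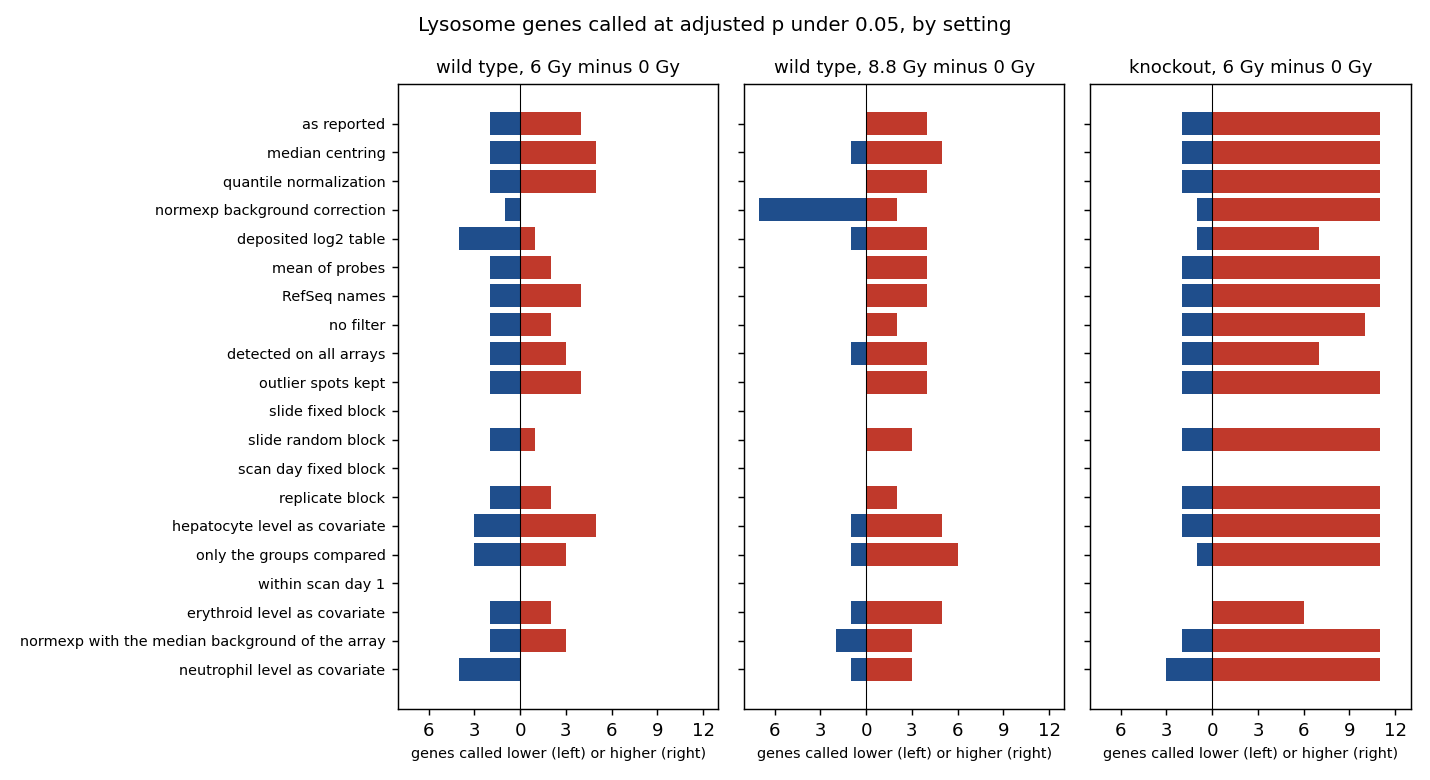
Number of lysosome genes called higher (red, to the right) and lower (blue, to the left) in the 3 dose responses. Each way of processing that keeps all arrays of the compared groups is shown, and the fit within scan day 1 where both doses were scanned. The knockout response has 11 higher and 2 lower as reported, 6 and 0 with the erythroid covariate, and 0 with a fixed block for slide or scan day. In these block fits the knockout difference rests on the arrays of scan day 1.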

How the data were processed

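RNA of whole blood was hybridised to 1-colour Agilent arrays, 1 mouse per array. Per the file headers, each spot's intensity was extracted by the authors with Agilent Feature Extraction 11.5.1, background-subtracted and detrended within the array. The authors' deposited log2 table equals the log2 processed intensity plus 1 constant per array (column medians 7.63 to 8.09), with the choice of that constant unknown. It served as an alternative.

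Here the log2 processed intensity minus the array's 75th percentile of it was used. Of 44397 spots, 43020 were no controls. They held 39429 probes with 30199 gene names, and the probe with the highest mean level stood for a name. The 15646 names tested were those that stood well above background on 4 or more arrays of some group. Group means over 24 arrays were fitted with limma 3.58.1 in R 4.3.3, with Benjamini-Hochberg adjustment over all names tested. The 9 comparisons were 7 differences between groups and 2 interactions. The fitting was tested on simulated data. With 4 or 5 mice a group, the number of arrays limits the precision. Mean marker levels were compared by two-sided exact permutation tests, whose smallest p is 0.00794, over 91 tests. The labels' replicate numbers name samples and do not pair them.

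All 33 genes are described by role. Full statistics are given for up to 6 called genes per comparison with the largest differences, values on every array for the 8 called in the most comparisons, and up to 2 called genes per other pathway list. The genes and lists were chosen with earlier results of these data known. Promoters are RefSeq's, of GRCm38.p6. Alternatives covered scaling, background correction, filter, slide, scan day, cell markers and left-out arrays (46 settings in all).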

Additional observations from a re-analysis of the deposited data

Results flagged for a closer look

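In 160 groups of 4 or 5 arrays, each a lysosome gene in a group, 11 held an array whose gap to its nearest neighbour passed Dixon's criterion at the 95% level, which chance alone passes in about 5% of groups. In wild-type 0 Gy mice these were Ctsa at 4.4 on replicate 4, Tcirg1 at 0.75 on replicate 2, and Neu1 at 2.82 and Atp6v0d1 at 3.25 on replicate 5. In wild-type 6 Gy mice they were Cd63 at 2.48 and Psap at 0.38, both on replicate 1. In wild-type 8.8 Gy mice they were Atp6ap1 at 1.4 on replicate 1, Glb1 at -0.1 on replicate 2, Npc2 at 4.21 on replicate 3 and Ctsz at -1.33 on replicate 4. In knockout 0 Gy mice it was Ctsl at 4.92 on replicate 1, and in knockout 6 Gy mice there was 0. Within the wild-type 8.8 Gy group, replicate 4 is also the array on which Parp1 was not well above background. The other 3 arrays of that group read between 4.28 and 4.93 for Ctsz.

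The Lamp2 response differed between genotypes at 6 Gy by a test of the difference itself: the interaction was 1.11 on the log2 scale (limma, adjusted p 0.0321), with all 5 irradiated knockout arrays above all 5 irradiated wild-type arrays. The same difference measured against the 8.8 Gy response was 0.32 (adjusted p 0.630). The interaction at 6 Gy was called in 18 of the 24 fits without 1 array, and not with a block for slide, scan day or replicate number (1.15 with slide as a random block, adjusted p 0.0563) or with normexp on each spot's own background (1.36, adjusted p 0.0748).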

How the results depend on the processing

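In the knockout response 13 lysosome genes were called, 12 to 14 when 1 array was left out, and a number within 1.5 times of 13 under 16 of 21 other settings. It was 8 with the deposited log2 table (22 genes tested, 7 higher, 1 lower), 6 with the erythroid mean as covariate, and 0 with a fixed block for slide or for scan day. Those 2 fits and the fit within scan day 1, counted here as separate settings, compare the same arrays: 1 at 6 Gy against 2 at 0 Gy. In wild type at 6 Gy 6 were called, 3 to 9 with 1 array left out, 3 with a random block for slide, 1 with normexp background correction, and 0 with a fixed block for slide or scan day. At 8.8 Gy 4 were called, 2 to 7 with 1 array left out, 7 with only the compared groups fitted, 2 without a filter and 0 with a fixed block for slide or scan day. Between genotypes at 6 Gy 1 was called, 0 to 1 with 1 array left out. It was 2 with the deposited table or the hepatocyte, erythroid or neutrophil mean as covariate. It was 0 with normexp, a fixed block for slide or scan day, probes detected on all arrays, only the compared groups, or within scan day 3. For the interaction at 6 Gy 1 was called, 0 to 2 with 1 array left out. It was 3 with the deposited table and 2 without a filter or with the hepatocyte or erythroid covariate. It was 0 with normexp, a random or fixed block for slide, or a fixed block for scan day. Between 8.8 and 6 Gy in wild type 0 were called, 2 with the erythroid covariate and 1 with the hepatocyte covariate or the deposited table. Between genotypes at 0 Gy 0 were called under all 20 other settings. For most of these settings the share of all genes called is not reported here, and the cause of these changes was not tested.

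Normexp gave 9 calls at 8.8 Gy, 2 higher and 7 lower, 5 between 8.8 and 6 Gy, 14 between knockout 6 Gy and wild-type 8.8 Gy and 15 for the interaction at equal lethality. Shares of all genes called in that fit are not reported here, so these counts cannot be read as particular to lysosome genes. It turned the differences at 8.8 Gy to -0.63 for Lamp1, -0.08 for Ctsd and -0.03 for Hexa. Its fitted background mean was far below 0 on 7 arrays, 4 of them wild-type 8.8 Gy, where the lowest spot lay at -1077 or less after subtracting its local background, against -74.4 or more elsewhere. With the array's median background instead, added after the data were seen, the counts were 3 higher and 2 lower at 6 Gy, 3 and 2 at 8.8 Gy and 11 and 2 in the knockout. Replicate numbers did not pair the mice: 13 of 46 same-number pairs correlated above 0.1 (median r -0.0274). With the replicate block 13 were called in the knockout, 4 at 6 Gy, 2 at 8.8 Gy, 0 between genotypes at 6 Gy and 0 for the interaction. Testing without a filter moved the median of all genes from 0.05 to 0.67 at 6 Gy. Genes near background are the limit of signal here: Asah1, Ppt1, Glb1, Scarb2 and Psap were not well above background on 1 to 3 knockout 0 Gy arrays.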
